A study of Mus musculus with 21 samples.

Results

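The genes described here encode insulin-like growth factor 1, the receptors that bind insulin-like growth factors (IGFs), and the secreted proteins that carry them. They are the 10 genes Igf1, Igf1r, Igf2r, Igfbp2, Igfbp3, Igfbp4, Igfbp5, Igfbp6, Igfbp7 and Igf2bp2, chosen by name, of 11034 genes tested. All probes that the platform annotation gives these symbols were taken. That annotation lists no probe for Igf2bp2, which encodes an RNA-binding protein of IGF2 messenger RNA, so 9 of the 10 genes were measured. They had 23 probes, of which 18 were detected on enough arrays to be kept.

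Expression was measured on mouse bead arrays in mice whose background mixed C57Bl/6 with 129X1/SvJ, each carrying SmoM2, an activated form of Smoothened that turns on Hedgehog signalling. In 15 rhabdomyosarcomas, tumors with features of skeletal muscle, SmoM2 was switched on by Cre recombinase under the promoter of aP2, a lipid-binding protein of fat cells that is also made by some other cells. In 3 tumors Cre was under that of Myogenin, a factor that drives the differentiation of muscle cells. The 3 control samples were normal sternocleidomastoid muscle, a neck muscle, of SmoM2 mice for which no Cre is named. The labels used here give no age and no treatment, and they do not say whether muscle samples 1 to 3 came from separate animals. If they did not, p-values against muscle take no account of how muscle differs between animals. The spread in these tests is estimated per gene over the 3 groups together, and the 15 aP2-Cre tumors contribute most to it. Where the Myogenin-Cre tumors varied more, as for Igfbp6, Igf1r and Igfbp5, SEs and p-values of their comparisons may be too small.

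IGF1 and IGF2 are secreted growth factors that act through the IGF1 receptor, a tyrosine kinase that signals through PI3K and Akt and promotes the growth of skeletal muscle. The IGF2 receptor has no kinase domain and carries IGF2 to the lysosome. IGF binding proteins hold the ligands in tissue fluid and blood, prolong their life and limit or deliver them to the receptor, and proteases that cut the binding proteins release the ligand. IGF2 and the IGF1 receptor are well known in rhabdomyosarcoma.

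Windows around the starts of 4 of the binding protein genes are shown because Igfbp2 was not detected in muscle, Igfbp3 and Igfbp4 had the largest measured differences from muscle, and Igfbp6 had the largest between the kinds of tumor. They come from RefSeq on mouse assembly GRCm38.p6 and run from 250 bases before to 50 after the gene's start. The Igfbp2 window is chr1:72824230-72824529 on the plus strand, that of Igfbp3 is chr11:7213874-7214173 on the minus strand, that of Igfbp4 is chr11:99040994-99041293 on the plus strand and that of Igfbp6 is chr15:102143936-102144235 on the plus strand. Capitals mark a GC box (GGGCGG) or a TATA box (TATAAA), on either strand.
Igfbp2: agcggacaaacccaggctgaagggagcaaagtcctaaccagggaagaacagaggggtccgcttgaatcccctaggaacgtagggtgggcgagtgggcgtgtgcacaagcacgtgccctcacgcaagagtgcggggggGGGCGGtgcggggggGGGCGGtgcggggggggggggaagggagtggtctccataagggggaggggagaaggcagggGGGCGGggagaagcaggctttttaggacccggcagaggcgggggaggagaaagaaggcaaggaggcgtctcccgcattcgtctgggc
Igfbp3: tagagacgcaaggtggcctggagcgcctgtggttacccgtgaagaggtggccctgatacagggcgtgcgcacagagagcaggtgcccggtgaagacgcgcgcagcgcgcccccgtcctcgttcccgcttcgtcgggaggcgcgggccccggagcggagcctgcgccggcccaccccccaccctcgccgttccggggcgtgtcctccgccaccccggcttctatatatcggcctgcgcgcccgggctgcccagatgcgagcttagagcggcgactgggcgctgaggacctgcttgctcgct
Igfbp4: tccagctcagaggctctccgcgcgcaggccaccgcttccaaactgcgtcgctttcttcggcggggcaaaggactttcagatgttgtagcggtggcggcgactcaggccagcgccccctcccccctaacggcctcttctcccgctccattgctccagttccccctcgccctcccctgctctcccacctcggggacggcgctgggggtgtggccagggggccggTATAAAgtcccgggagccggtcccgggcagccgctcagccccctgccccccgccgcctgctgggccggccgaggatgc
Igfbp6: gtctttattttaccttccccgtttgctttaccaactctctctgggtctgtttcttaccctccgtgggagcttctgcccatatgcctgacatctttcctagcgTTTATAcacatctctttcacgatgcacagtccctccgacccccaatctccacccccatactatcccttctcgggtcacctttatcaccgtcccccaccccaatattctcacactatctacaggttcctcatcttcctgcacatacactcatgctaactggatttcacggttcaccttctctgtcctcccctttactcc

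All 10 genes had a window, and Igfbp2 had a second one, making 11. On both strands, the windows were searched for the TATA box TATAAA, the GC box GGGCGG, the E-box CAGCTG and the Gli site GACCACCCA, and no matches to different motifs overlapped in the windows printed. A TATA box was found in Igfbp4, at base -28 from the start, and in Igfbp6, at base -148, against 13.6% of 32851 mouse windows. GC boxes were in 5 of the 11 windows, those of Igf1r, Igf2r, Igf2bp2, Igfbp7 and the printed window of Igfbp2, against 35.7% of all windows. An E-box was in that of Igf1 alone, against 16.3%, and the Gli letters were in 0 of the 11, against 0.253%. The Igfbp3 window held 37 CG dinucleotides and that of Igfbp6 held 8, where the median of all windows was 7. These matches describe the letters only.

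Each array detected 32.0% to 39.8% of 45281 probes. Levels below are log2 intensities after background correction and quantile normalization, and the number of arrays limits the precision. The labelled tissues were checked with marker genes. Mean levels of 6 developmental muscle genes lay at 12.09 to 13.12 in both kinds of tumor and at 7.99 to 8.28 in muscle, and those of 4 Hedgehog response genes at 7.49 to 8.89 and 5.33 to 5.60. The deposited normalized values fall into 5 sets of arrays, each normalized on its own. Muscle shares a set with aP2-Cre tumors 128, 135 and 140, the Myogenin-Cre tumors share another with aP2-Cre tumors 89, 90 and 95, and no set holds both Myogenin-Cre tumors and muscle.

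Compared with muscle, aP2-Cre tumors had higher levels of 8 of the 9 measured genes, namely Igf1, both receptors and all binding proteins except Igfbp6, which was lower. Igfbp2, 1 of the 8, was not detected in muscle. It passed the detection filter through the tumors only, so it adds no support to these counts. A difference was called where limma's Benjamini-Hochberg adjusted p over all genes was under 0.05. By that rule 34.0% of all genes were higher and 29.8% lower. The median log2 difference of the members was 1.42, and of all genes 0.09. With arrays centered on their median in place of quantile normalization, 5063 genes were higher and 1722 lower instead of 3757 and 3285, the median of all genes moved to 0.44, and the 9 members kept their direction and call. For 8 members every tumor lay above every muscle array (25.1% of all genes), and for 1 every tumor lay below (22.9%). In tissue samples, more cells that express a gene cannot be told apart from more RNA per cell.

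In the Myogenin-Cre tumors, 6 of the 9 genes were higher than in muscle and 0 were lower, where 25.2% of all genes were higher and 23.9% lower. The 6 were Igf1r, Igf2r, Igfbp2, Igfbp3, Igfbp4 and Igfbp7, and in each of them all 3 tumors lay above all 3 muscle samples (32.1% of all genes lay above in this way and 30.4% below). Igfbp2 again adds no support to these counts, being undetected in muscle. Igf1, Igfbp5 and Igfbp6 did not pass the test. The median log2 difference was 1.38 for the members and 0.06 for all genes. With median centering 2942 genes were higher and 1398 lower in place of 2778 and 2635, with a median of 0.25, and the calls of the members were the same. Both comparisons use the same 3 muscle arrays, so they are not independent.

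**Figure D1:**
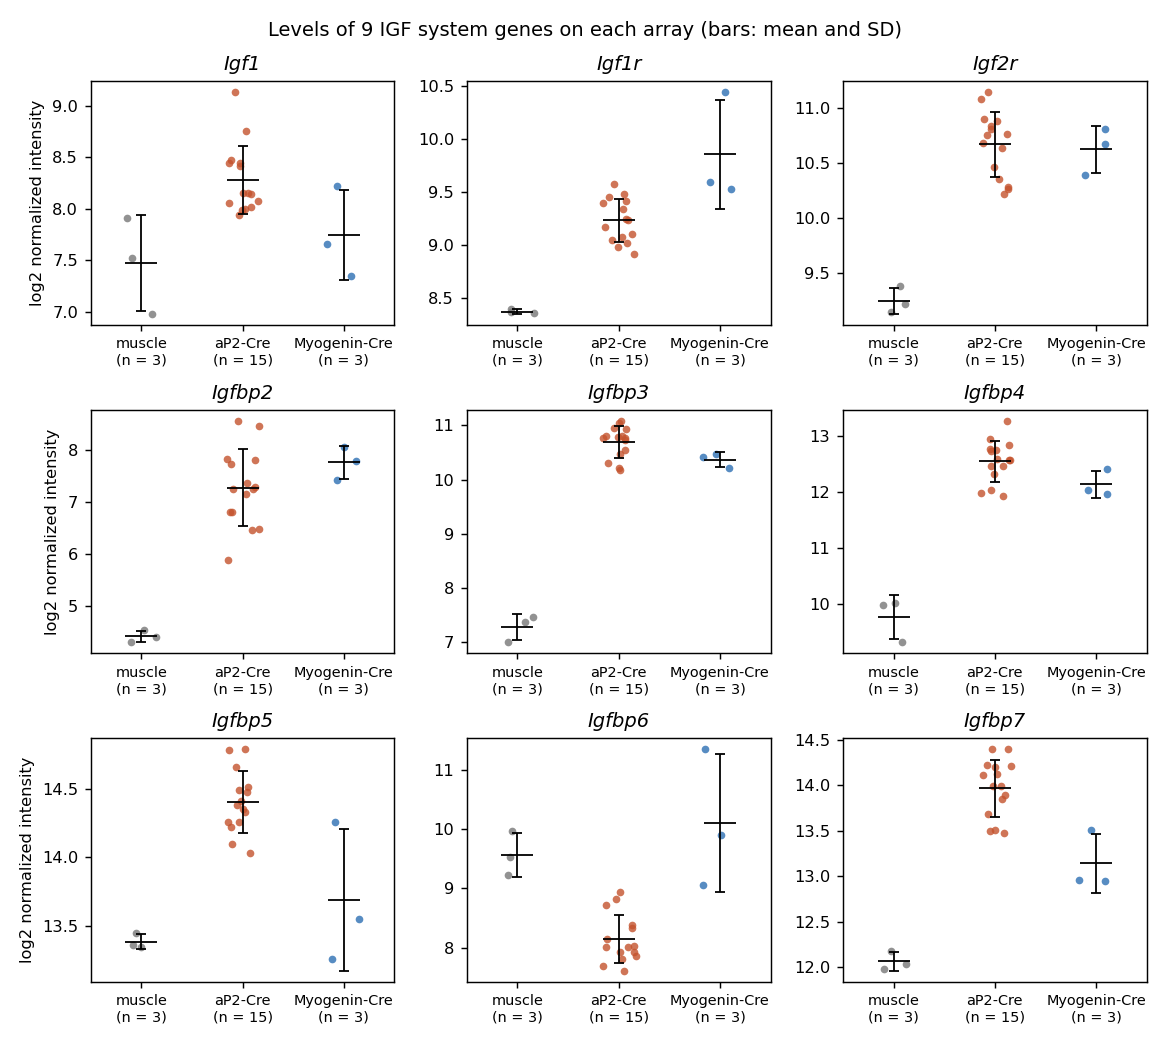
Log2 level of each of the 9 measured genes on each array, with 1 point per array (15 tumors of aP2-Cre mice, 3 of Myogenin-Cre mice and 3 muscle samples), bars for mean and SD, and an axis of its own for each gene. Igfbp2, Igfbp3 and Igfbp4 of both kinds of tumor sit far above muscle, and Igfbp6 of the aP2-Cre tumors sits below both other groups.

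Igf1, the circulating and local growth factor, had levels of 7.91, 7.52 and 6.98 in muscle samples 1, 2 and 3. It was at 7.35, 8.22 and 7.66 in Myogenin-Cre tumors 41, 42 and 43, and at 7.94 to 9.13 (median 8.15) in aP2-Cre tumors, the highest being tumor 174. All 15 aP2-Cre tumors lay above muscle, while the Myogenin-Cre tumors overlapped it. The log2 difference of aP2-Cre tumors from muscle was 0.81 ± 0.22 (SE), or 1.75-fold (adjusted p = 0.00301 by limma). It was lost with array set as a block (0.69, adjusted p = 0.0597) and without muscle sample 3 (0.56, adjusted p = 0.0621). In Myogenin-Cre tumors the difference was 0.27 ± 0.28 (adjusted p = 0.441), with a 95% interval of -0.32 to 0.87. A second Igf1 probe gave 1.36 (adjusted p = 1.38e-05 by limma) in aP2-Cre tumors and 0.84 (adjusted p = 0.0179) in Myogenin-Cre tumors.

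Igf1r encodes the receptor kinase. It lay at 8.36, 8.37 and 8.40 in muscle, at 9.59, 9.53 and 10.44 in the Myogenin-Cre tumors and at 8.92 to 9.58 (median 9.24) in the aP2-Cre tumors. Both kinds of tumor stood above muscle, and 14 of 15 aP2-Cre tumors stood below all Myogenin-Cre tumors. The difference from muscle was 0.86 ± 0.15 in aP2-Cre tumors (1.81-fold, adjusted p = 5.06e-05) and 1.48 ± 0.20 in Myogenin-Cre tumors (2.78-fold, adjusted p = 3.85e-06). A second probe, detected on all arrays, differed from muscle by 0.29 (adjusted p = 0.186) in aP2-Cre tumors and by 0.68 (adjusted p = 0.0232) in Myogenin-Cre tumors, and it correlated with the first at r = 0.41 over the 15 aP2-Cre tumors. The call in aP2-Cre tumors therefore rests on 1 probe. The remaining kept probe was not detected on any muscle array and was dim in the tumors, so it gives no usable difference.

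Igf2r, the receptor that removes IGF2, was at 9.38, 9.22 and 9.15 in muscle, 10.39, 10.67 and 10.81 in the Myogenin-Cre tumors and 10.22 to 11.14 (median 10.75) in the aP2-Cre tumors. The tumor arrays lay above all muscle arrays and overlapped each other. It was 2.68-fold higher in aP2-Cre tumors (log2 1.42 ± 0.17, adjusted p = 2e-07) and 2.6-fold higher in Myogenin-Cre tumors (1.38 ± 0.21, adjusted p = 2.15e-05). Its second probe was also called in both comparisons.

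Igfbp2, a binding protein abundant in fetal tissue, was not detected on any of the 3 muscle arrays, by either of its probes. It was at 7.43, 8.06 and 7.78 in Myogenin-Cre tumors and at 5.89 to 8.56 (median 7.25) in aP2-Cre tumors. It had the widest range of the 9 genes among aP2-Cre tumors, 2.67 on the log2 scale, with tumor 115 lowest and tumor 104 highest. Muscle gives only a bound, set by the lowest detected signal of each array. By that bound the gene was at least 3.05-fold higher in aP2-Cre tumors and at least 4.26-fold higher in Myogenin-Cre tumors. The second probe gave at least 1.8-fold and 2.56-fold. The limma adjusted p-values, 1.56e-06 and 1.39e-05, belong to fitted differences from undetected muscle values and do not test these bounds. The gene passed the detection filter through the tumors only.

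Igfbp3, the main carrier of IGFs in blood, had the largest measured difference of the 9 genes. Muscle samples 1 and 2 were at 7.46 and 7.37 and sample 3 was the lowest, with a mean of 7.28 ± 0.25 (SD, n = 3). Its levels were 10.21, 10.48 and 10.41 in the Myogenin-Cre tumors and 10.17 to 11.09 (median 10.77) in the aP2-Cre tumors. No tumor came near the muscle range. It was 10.7-fold higher in aP2-Cre tumors (log2 3.42 ± 0.17, adjusted p = 4.78e-13) and 8.5-fold higher in Myogenin-Cre tumors (3.09 ± 0.21, adjusted p = 4.54e-10).

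Igfbp4, which holds IGFs until it is cut by the protease PAPP-A, was at 10.02, 9.98 and 9.32 in muscle. It was at 11.97, 12.42 and 12.04 in Myogenin-Cre tumors and at 11.93 to 13.28 (median 12.58) in aP2-Cre tumors. Muscle lay below all tumors, and the tumor groups overlapped. The gene was 6.86-fold higher in aP2-Cre tumors (log2 2.78 ± 0.22, adjusted p = 6.41e-10) and 5.17-fold higher in Myogenin-Cre tumors (2.37 ± 0.28, adjusted p = 7.37e-07).

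Igfbp5, a binding protein that attaches to matrix and is made by developing muscle cells, was among the brightest genes on the arrays. By mean level its rank was 27 of 11034 genes in aP2-Cre tumors, 84 in Myogenin-Cre tumors and 126 in muscle. It was at 13.35, 13.45 and 13.36 in muscle, 13.55, 14.26 and 13.26 in Myogenin-Cre tumors and 14.03 to 14.79 (median 14.38) in aP2-Cre tumors. Only the aP2-Cre tumors stood clear of muscle, at 2.02-fold higher (log2 1.01 ± 0.16, adjusted p = 9.8e-06). In Myogenin-Cre tumors the difference was 0.30 ± 0.21 (adjusted p = 0.239, 95% interval -0.13 to 0.73), and 1 of 3 probes was called there (0.60, adjusted p = 0.0237).

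Igfbp6, which binds IGF2 in preference to IGF1, went the other way in aP2-Cre tumors. It was at 9.52, 9.96 and 9.22 in muscle, at 9.90, 9.05 and 11.35 in Myogenin-Cre tumors and at 7.61 to 8.93 (median 8.01) in aP2-Cre tumors. All aP2-Cre tumors lay below every array of the other groups, and the Myogenin-Cre tumors spread on both sides of muscle. The gene was 2.68-fold lower in aP2-Cre tumors than in muscle (log2 -1.42 ± 0.32, adjusted p = 0.000591). In Myogenin-Cre tumors the difference was 0.54 ± 0.42 (adjusted p = 0.296), and it was -0.09 without tumor 43 and 1.06 (adjusted p = 0.0368) without tumor 42. This gene has 1 probe.

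Igfbp7, a secreted protein of vessel walls and matrix that binds IGFs weakly, ranked 56 of 11034 by mean level in aP2-Cre tumors, 141 in Myogenin-Cre tumors and 419 in muscle. It was at 12.18, 12.03 and 11.98 in muscle, 12.96, 13.51 and 12.95 in Myogenin-Cre tumors and 13.47 to 14.40 (median 13.99) in aP2-Cre tumors. The tumors lay above muscle without overlap. It was 3.75-fold higher in aP2-Cre tumors (log2 1.91 ± 0.18, adjusted p = 1.02e-08) and 2.11-fold higher in Myogenin-Cre tumors (1.08 ± 0.23, adjusted p = 0.000619). The other 4 of its 5 probes were not detected on any array.

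**Figure D2:**
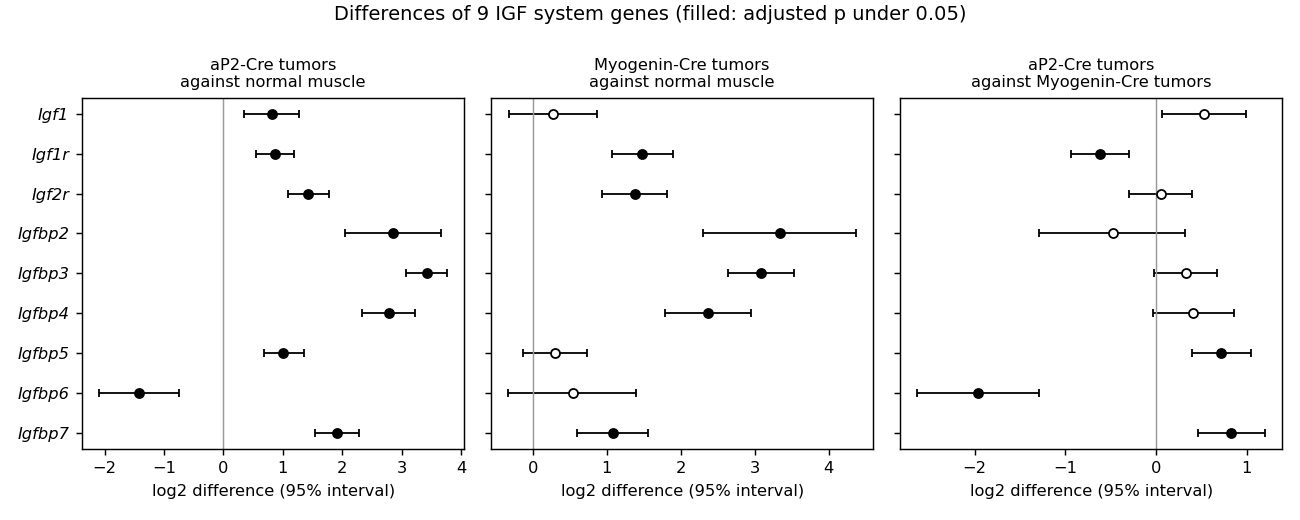
Log2 difference of each gene with its 95% interval, in the 3 comparisons, filled where adjusted p was under 0.05. For Igfbp2 against muscle the fitted value is drawn, though muscle gives only a bound. Against muscle the points of Igfbp3 lie at 3.42 and 3.09, and the point of Igfbp6 is below 0 for aP2-Cre tumors only.

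Within the array set that holds muscle, the 3 aP2-Cre tumors 128, 135 and 140 differed from muscle in the same direction for all 9 genes. All 9 were called there, with Igfbp2 undetected in muscle. The log2 differences were 3.46 for Igfbp3, 2.58 for Igfbp4, 2.14 for Igfbp7, -1.28 for Igfbp6 and 0.69 for Igf1, the last with adjusted p = 0.0432. Markers of other cells moved in the same comparisons. Of 12 macrophage markers, 11 were higher in aP2-Cre tumors and 2 in Myogenin-Cre tumors, with mean levels of 8.73 to 10.05, 7.83 to 8.28 and 6.98 to 7.76 in aP2-Cre tumors, Myogenin-Cre tumors and muscle. Of 9 fibroblast and matrix markers, 7 and 3 were higher, with mean levels of 9.92 to 11.27, 9.46 to 10.48 and 9.04 to 9.43. Of 6 pericyte and smooth muscle markers, 5 and 5 were higher, at 8.74 to 9.78, 9.36 to 9.73 and 8.10 to 8.48. Of 8 measured adipocyte markers, 8 and 6 were lower, at 6.89 to 8.74, 8.37 to 8.54 and 10.15 to 10.39. Each of the 8 was detected on all 3 muscle arrays. Of 9 mature muscle genes, 7 and 4 were lower, at 10.76 to 12.76, 12.24 to 12.45 and 13.78 to 13.90. Of 9 endothelial markers, 3 rose and 3 fell in aP2-Cre tumors and 3 were higher in Myogenin-Cre tumors, at 8.82 to 9.39, 9.05 to 9.37 and 8.96 to 9.19. The part of these cells in the differences of the 9 genes was not tested.

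Between the kinds of tumor, 4 of the 9 genes differed. Igfbp5 and Igfbp7 were higher in aP2-Cre tumors, and Igf1r and Igfbp6 were lower, where 8.08% of all genes were higher and 7.68% lower. Igfbp6 was the most different, 3.88-fold lower in aP2-Cre tumors (log2 -1.96 ± 0.32, adjusted p = 0.000453), and the only one of the 9 whose groups did not overlap (2.40% of all genes lay below in this way and 3.23% above). Igfbp7 differed by 0.83 ± 0.18 (adjusted p = 0.00393) with 13 of 15 aP2-Cre tumors above all Myogenin-Cre tumors, and Igfbp5 by 0.72 ± 0.16 (adjusted p = 0.00481) with 11 of 15 above. Igf1r differed by -0.62 ± 0.15 (adjusted p = 0.0103). The SD among Myogenin-Cre and aP2-Cre tumors was 1.16 and 0.41 for Igfbp6, 0.51 and 0.20 for Igf1r, and 0.51 and 0.22 for Igfbp5. For Igfbp7 it was 0.32 and 0.31. The SEs and p-values of Igfbp6, Igf1r and Igfbp5 thus mostly reflect the narrower aP2-Cre spread and may be too small. The other kept probes of Igf1r were not called by limma (-0.40, adjusted p = 0.157, and -0.21, adjusted p = 0.375). With median centering 1035 genes were higher and 226 lower in place of 891 and 847, the median of all genes was 0.17 in place of 0.01, and Igf1r was no longer called (-0.45, adjusted p = 0.159). Without Myogenin-Cre tumor 43 the difference was -1.33 for Igfbp6 (adjusted p = 0.0175), and the calls were lost for Igf1r (-0.33, adjusted p = 0.233), Igfbp5 (0.50, adjusted p = 0.121) and Igfbp7 (0.74, adjusted p = 0.0624). Without tumor 41 that of Igfbp5 was lost too (0.65, adjusted p = 0.0521), and without tumor 42 the difference of Igfbp6 was -2.48.

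They also depended on the array sets. Within the set that holds both kinds, 3 against 3, none of the 9 genes was called by limma. The difference there was -1.94 for Igfbp6 (adjusted p = 0.185), -0.44 for Igf1r (0.427), 0.50 for Igfbp5 (0.373) and 0.49 for Igfbp7 (0.294). With array set as a block Igfbp6 was still called (adjusted p = 0.027) and the other 3 were not. Beside these genes, 7 of 12 macrophage markers rose and 1 fell in aP2-Cre tumors, 2 of 9 fibroblast and matrix markers were higher, 2 of 6 pericyte markers were higher and 2 lower, and 3 of 8 adipocyte markers were lower. Of 6 developmental muscle genes 3 were higher (Chrng by 0.96, Myod1 by 1.00 and Myog by 0.91), of 9 endothelial markers 1 was lower (Cldn5, -1.15), of 4 Hedgehog response genes Foxf1 was higher and Gli2 lower, and of 9 mature muscle genes 0 were called. Their part was not tested.

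The other 5 genes did not pass the test between the tumors. The difference was 0.53 for Igf1 (adjusted p = 0.103, 95% interval 0.07 to 0.99), 0.33 for Igfbp3 (0.184, -0.02 to 0.67) and 0.41 for Igfbp4 (0.206, -0.04 to 0.86). It was -0.48 for Igfbp2 (adjusted p = 0.422, -1.29 to 0.32) and 0.05 for Igf2r (0.881, -0.30 to 0.39). A second probe of Igfbp3 was called (0.66, adjusted p = 0.0469).

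**Figure D3:**
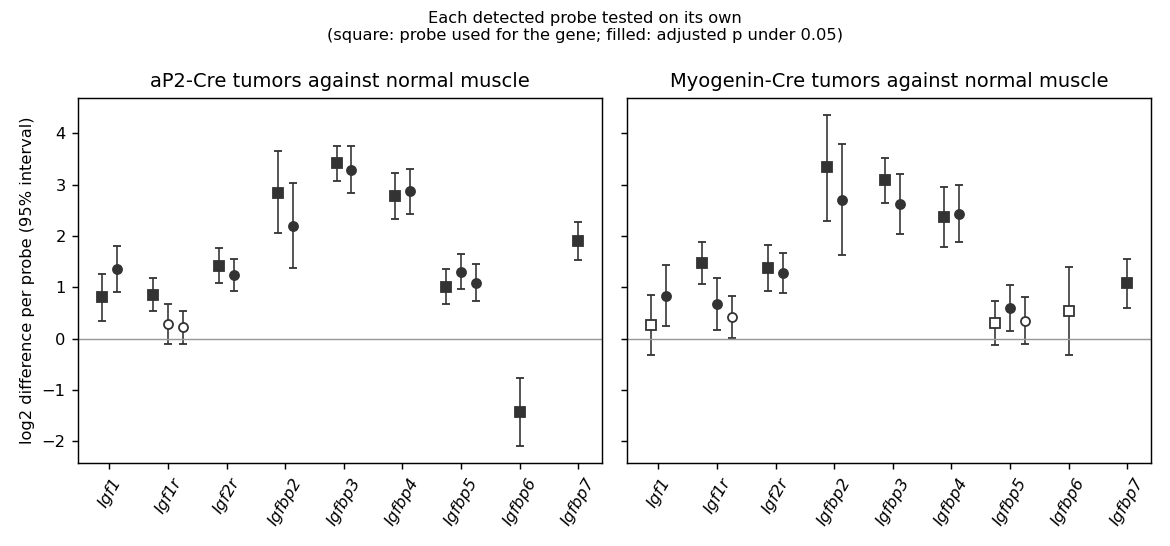
Log2 difference given by each kept probe of the 9 genes, for each kind of tumor against muscle. For aP2-Cre tumors against muscle the Igf1r probes detected in muscle lie at 0.29 and 0.86, while both probes of Igfbp3 lie above 3. For Myogenin-Cre tumors the Igfbp3 probes lie at 3.09 and 2.63.

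Tested probe by probe, 15 of the 18 were higher and 1 lower in aP2-Cre tumors than in muscle, where 31.7% of all 16807 probes tested were higher and 31.2% lower. In Myogenin-Cre tumors 13 were higher and 0 lower than in muscle, against 3870 higher and 4276 lower (25.4%) of all 16807 probes. Between aP2-Cre and Myogenin-Cre tumors 5 were higher and 2 lower, against 7.21% and 7.15%. Probes of a gene share its RNA and are not replicates. Both Igfbp2 probes, undetected in muscle, are among those higher in each kind of tumor than in muscle. Over the aP2-Cre tumors the second probe followed the first at r = 0.93 for Igfbp2, 0.92 for Igf1, 0.80 for Igf2r, 0.77 for Igfbp4 and 0.49 for Igfbp3, as a description over 15 tumors.

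Among the 15 aP2-Cre tumors the range was 2.67 on the log2 scale for Igfbp2, 1.35 for Igfbp4, 1.32 for Igfbp6 and 1.20 for Igf1, and 0.66 for Igf1r. Igfbp2 was 6.37-fold higher in tumor 104 than in tumor 115. Of 36 pairs of genes, 0 were correlated after adjustment by Pearson's r or Spearman's rho with 100000 permutations, and 5 had an unadjusted p under 0.05 by r. The strongest was Igf1r with Igfbp2 (r = -0.72, rho = -0.67, permutation p = 0.00253, adjusted p = 0.0911, two-sided). It was -0.60 without the 2 tumors farthest from the median of Igf1r and -0.79 with array set means removed. With median centering in place of quantile normalization this relation was absent (r = -0.02). With median centering 6 pairs passed by r, all positive, and 0 by rho (lowest adjusted permutation p = 0.0594), the first including Igfbp3 with Igfbp4 (r = 0.78, adjusted permutation p = 0.0104).

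**Figure D4:**
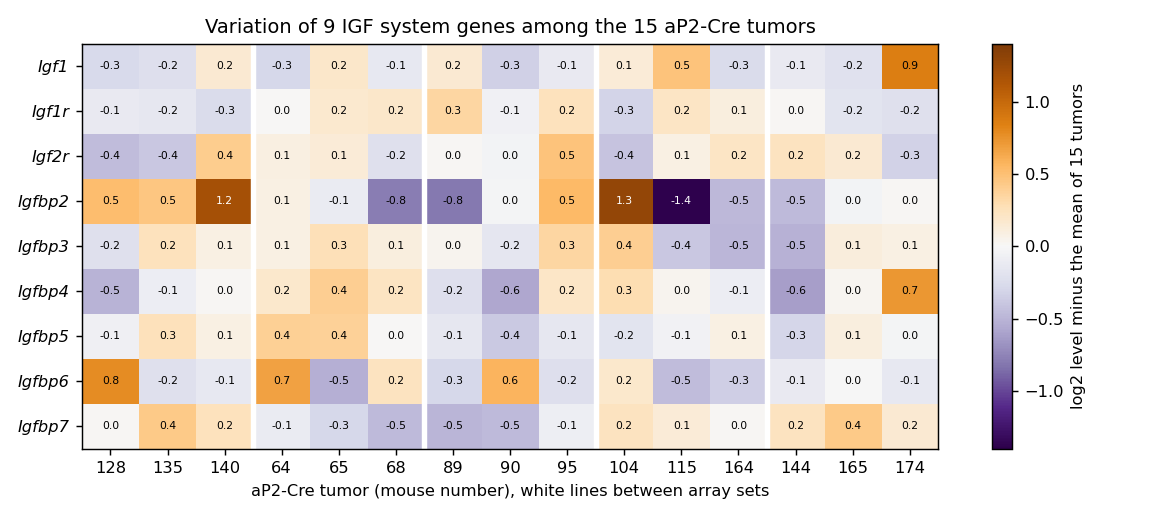
Level of each gene in each of the 15 aP2-Cre tumors as the log2 distance from the gene's mean over those tumors, with tumors ordered by array set. Tumor 115 is lowest and tumor 104 highest for Igfbp2, and tumor 174 is highest for Igf1 and Igfbp4.

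The genes with the most similar pattern over those 15 tumors, among all 11034, are given as a description, with Pearson's r. They were Zfp655 (0.87) and Guca1a (0.86) for Igf1, Sidt2 (0.91) and Alms1 (0.88) for Igf1r, and Vps35l (0.88) and Ccdc47 (0.85) for Igf2r. For the binding proteins they were Colca2 (0.89) and Pxmp4 (0.88) for Igfbp2, Tspyl5 (0.85) and Maml2 (0.81) for Igfbp3, and Snx8 and St8sia4 (0.88 each) for Igfbp4. They were Ankib1 (0.81) and Wif1 (0.80) for Igfbp5, P2ry2 (0.90) and Dmtn (0.88) for Igfbp6, and Rb1 and Il17rd (0.90 each) for Igfbp7. Of the 15 tumors, P2ry2 was detected in 4, Ankib1 in 10, Tspyl5 in 12, and Guca1a and Colca2 in 14 each. Without the 2 tumors farthest from the member's median, r was 0.65 for Zfp655. With array set means removed it was 0.65 for Ankib1. These were the lowest values under each check.

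Other genes of the pathway were taken from 3 lists of 40 genes, of which 28 were measured. Against muscle 11 were higher and 8 lower in aP2-Cre tumors (median log2 difference 0.12), near the shares of all genes (34.0% and 29.8%, median 0.09). In Myogenin-Cre tumors 12 were higher and 5 lower (median 0.52), where 25.2% and 23.9% of all genes were (median 0.06). Between the tumors 1 was higher and 6 were lower on the aP2-Cre side (median -0.17), where 8.08% and 7.68% of all genes were (median 0.01). The level of the ligand gene Igf2 was 15.05 ± 0.06 (SD, n = 15) for the aP2-Cre group, 14.97 ± 0.09 (SD, n = 3) for the Myogenin-Cre group and 12.10 ± 0.02 (SD, n = 3) for muscle, close to the top of the scale, so no fold is given. Pappa, the protease that cuts IGFBP4, had no detected signal on the muscle arrays, and it exceeded that bound by at least 9.16-fold in aP2-Cre tumors and at least 10.6-fold in Myogenin-Cre tumors. Stc1, an inhibitor of that protease, was also higher (log2 2.14 and 1.44), and Stc2, another inhibitor of it, was lower (-0.73 and -0.80). Igfals, which stabilizes the complex of IGF with IGFBP3 in blood, was lower (-3.28 and -3.16), and it was detected in 8 of 15 and 2 of 3 tumors. Htra1, a protease that cuts binding proteins, was higher in aP2-Cre tumors (1.88) and differed between the kinds of tumor (1.77, adjusted p = 0.00199), while its difference in Myogenin-Cre tumors was 0.11 (adjusted p = 0.864).

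Among receptor adaptors, Shc1 was higher (1.39 and 1.34 in aP2-Cre and Myogenin-Cre tumors) and so was Grb10 (1.18 and 1.70), while Grb14 was lower (-1.69 and -1.75). Irs2 and Insr, the insulin receptor gene, were lower in aP2-Cre tumors than in muscle (-1.01 and -0.38) and than in Myogenin-Cre tumors (-0.74 and -0.59). Among PI3K and Akt genes, the regulatory subunits Pik3r3 (1.43 and 1.41) and Pik3r1 (0.94 and 1.35) and the kinase Pdpk1 (0.86 and 1.17) were higher in both kinds of tumor than in muscle, and the catalytic subunit Pik3cb was lower in both (-0.56 and -0.81). In aP2-Cre tumors Rheb (-0.45), which activates mTOR, and Eif4ebp1 (-0.42), a target of mTOR, were also lower. The transcription factor Foxo3 was called higher there, but no fold is given. It was detected on 0 of 3 muscle arrays and in 10 of 15 aP2-Cre tumors. In Myogenin-Cre tumors Tsc1 (0.86) was also higher and the regulatory subunit Pik3r2 (-0.47) lower. Of the 15 measured genes of this list 5 were higher and 3 lower in aP2-Cre tumors (median -0.03), and 6 higher and 2 lower in Myogenin-Cre tumors (median 0.40). Mtor (-0.95), Eif4ebp1 (-0.83) and Tsc2 (-0.34) were lower in aP2-Cre than in Myogenin-Cre tumors. The RNA-binding relative Igf2bp3 was higher in Myogenin-Cre tumors than in muscle (1.97, adjusted p = 0.000382) and lower in aP2-Cre tumors than in those (-2.14, adjusted p = 0.000155). Its probe was detected in 11 of 15 aP2-Cre tumors and 2 of 3 muscle samples, so these sizes rest partly on undetected values.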

How the data were processed

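Bead arrays measured RNA of 15 tumors of aP2-Cre mice, 3 of Myogenin-Cre mice and 3 muscle samples. The table without normalization that the authors deposited holds a linear intensity and a detection p-value per probe and array, per the file headers. A second table the authors deposited holds intensity values that were quantile normalized in 5 sets of arrays, as shared value distributions show. Per the submitters' processing notes BeadStudio was used, version not stated. For the genome build the sources used here give none.

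The non-normalized intensities were corrected with normexp (control parameters inferred from detection p, offset 16) and quantile normalized with neqc in limma 3.58.1 (R 4.3.3). Probes with detection p under 0.01 on at least 3 arrays were kept, 19655 of 45281, and the probe of highest mean was taken per gene, 11034 genes. Of all probes, 34885 carry 1 gene symbol, 18 several and 10378 none. Groups were compared with limma's lmFit and contrasts.fit, followed by eBayes with trend (two-sided, Benjamini-Hochberg over all genes, threshold 0.05) in 1 fit over the 3 groups, which was tested on simulated data. A gene not detected on any array of a group has a bound there. Each array detected 32.0% to 39.8% of the probes. Correlations used 100000 permutations in Python 3.11.15 with numpy 2.4.6.

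Named genes were all members and their probes, up to 4 genes of each pathway list in each direction per comparison with the smallest adjusted p, and the 2 genes most like each member. Marker lists are given by counts and levels. For the developmental muscle, endothelial and Hedgehog response lists, the genes called between the kinds of tumor are also named. Members and lists were chosen with earlier results of these data known. Alternatives covered the background offset, median centering, the values as the authors normalized them, no probe filter, single probes, array weights, the array sets and each muscle sample and Myogenin-Cre tumor left out. Relations of the members with marker lists over aP2-Cre tumors were added after the data were seen.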

Additional observations from a re-analysis of the deposited data

Results flagged for a closer look

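4 genes differed between the kinds of tumor when that difference was tested directly, as aP2-Cre minus Myogenin-Cre tumors on the log2 scale. The difference was -1.96 for Igfbp6, 0.83 for Igfbp7, 0.72 for Igfbp5 and -0.62 for Igf1r, whose other kept probes were not called. Igfbp6 alone kept its call with array set as a block, and within the shared set of 3 against 3 arrays none of the 4 was called.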

How the results depend on the processing

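Of 126 values of single genes in aP2-Cre tumors against muscle under alternatives, 124 kept direction and call and 2 lost the call, both for Igf1. Of 117 in Myogenin-Cre tumors against muscle, 115 did, 1 gained a call and 1 reversed. Of 126 between the tumors, 108 did, 14 lost the call, 2 gained it and 2 reversed. The reversed values were not called in either setting, namely -0.09 for Igfbp6 in Myogenin-Cre tumors against muscle without tumor 43, and for Igf2r between the tumors -0.03 with the authors' values and -0.07 without tumor 41 (up to 0.14 when other arrays were left out). Without single arrays Igfbp6 in Myogenin-Cre tumors against muscle ran from -0.09 to 1.06. Median centering gave 1722 lower genes in aP2-Cre tumors against muscle, 1398 in Myogenin-Cre tumors against muscle and 226 between the tumors, and 1 lower member between the tumors. It gave 6 correlated pairs in place of 0 by Pearson's r, and 0 by Spearman's rho. Between the tumors, where 891 genes were higher and 847 lower, the authors' values gave 207 and 322, array weights 1661 and 1431, array set as a block 201 and 208, and the shared set alone 33 and 12, where fewer samples enter. The members called between the tumors, 2 higher and 2 lower, became 1 and 1 with the authors' values, 0 and 1 with the block and 0 and 0 within the set. Leaving out 1 array of muscle or of the Myogenin-Cre tumors gave 196 to 1188 higher and 170 to 1005 lower genes, and 0 to 3 higher and 1 to 2 lower members. Other causes of these changes were not tested. No paired analysis was possible because the groups share no replicate numbers that the labels tie to a common animal or batch.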

Other observations

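Relations of the 9 genes with 8 marker lists and with the share of probes detected were computed over the 15 aP2-Cre tumors, 81 in all, and they were chosen after the data were seen. By Pearson's r 3 passed adjustment over the 81, all with Igf1, and by Spearman's rho 0 did. Igf1 went with the pericyte and smooth muscle markers at r = -0.82 (rho = -0.50, adjusted permutation p = 0.032), with the macrophage markers at 0.80 (rho = 0.61, 0.0351) and with the mature muscle genes at -0.77 (rho = -0.73, 0.032). Without tumors 174 and 115, the farthest from the median of Igf1, r was -0.42, 0.30 and -0.64, so the mature muscle relation was nearer to its value with all tumors than the other two were, and 0 of the 81 passed with 13 tumors. With array set means removed r was -0.85, 0.77 and -0.77, close to the values above, and 0 passed when permuted within the sets of 3 tumors.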
